A study of Mus musculus with 8 samples.

Results

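The genes described here are 38 genes of neurons, measured in palatal shelves of mouse embryos at embryonic day 14.5. They were taken by name: every probe set annotated with exactly 1 of the 38 symbols was collected, which gave 93 probe sets, and each gene was represented by the one with the highest mean over the 8 arrays. All 38 were found among the 18193 genes that have a probe set with a single symbol. The choice of probe sets used no difference between samples, but the genes were chosen with earlier results of these data known. The 38 comprise the neuronal cytoskeleton (7 genes), neuronal intermediate filaments (5), neuronal RNA-binding proteins (3), axon growth and adhesion (2), synaptic and vesicle proteins (7), secretory granule proteins (2), other neuronal proteins (4), sensory identity (3), autonomic identity (4) and Isl1 (1), which marks both sensory and sympathetic neurons.

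Palatal shelves grow out from the upper jaw on either side and form the palate. There were 4 arrays of R26Pax3/Pax3 embryos, where R26Pax3 is a Pax3 allele at the Rosa26 locus, and 4 of wild type embryos without it, which were littermates, all from a cross of C57BL/6 and SV129. Pax3 encodes a transcription factor that acts early in neural crest cells and in precursors of muscle. The labels name no driver line for the allele, do not say which cells expressed it and do not say whether an array holds 1 embryo or a pool, so the p-values rest on a spread among arrays that may be technical. Each array bears its replicate number from the labels: R26Pax3/Pax3 has replicates 1, 3, 4 and 7, and the wild type embryos have 2, 6, 8 and 11. The values are MAS5 signals on a linear scale, with array medians between 43.5 and 44.9, and a signal below the median of its array is called dim here because it cannot be told from background without detection calls.

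Neurons carry a shared set of proteins for long processes and for release of transmitter, and different transcription factors and enzymes set sensory neurons apart from autonomic ones. The palate receives sensory fibres whose cell bodies lie in the trigeminal ganglion and parasympathetic fibres from the pterygopalatine ganglion, which lies close to the palate. Pou4f1 and the receptor tyrosine kinases of neurotrophins mark sensory neurons. Phox2a and Hand2 are transcription factors of autonomic neurons, Th and Dbh make catecholamines in sympathetic neurons, and parasympathetic neurons of cranial ganglia often use the vasoactive intestinal peptide encoded by Vip. Many genes of neurons are silenced in other cells by the repressor REST, which binds an element called RE1.

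Of the 38 genes, 29 have promoter windows in the RefSeq table of build GRCm38.p6, which run from 250 bases before to 50 bases after a gene's start. The windows of Tubb3, Prph and Phox2a are printed because these genes differed together between arrays, and that of Vip because it followed them from outside the list. Capitals mark matches, on either strand, to 4 motifs: CAGCACC and GGACAGC, the left and right part of RE1, TATAAA, the TATA box, and TGACG, the core of the cyclic AMP response element. Tubb3 lies at chr8:123411303-123411602, Prph at chr15:99054924-99055223, Phox2a at chr7:101818063-101818362 and Vip at chr10:5638968-5639267, each on the forward strand.
Tubb3: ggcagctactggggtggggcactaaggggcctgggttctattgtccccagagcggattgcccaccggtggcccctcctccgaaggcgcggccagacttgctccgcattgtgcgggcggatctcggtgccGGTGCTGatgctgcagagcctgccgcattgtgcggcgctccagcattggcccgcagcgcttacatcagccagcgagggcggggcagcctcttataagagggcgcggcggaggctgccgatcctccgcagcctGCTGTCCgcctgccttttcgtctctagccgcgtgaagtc
Prph: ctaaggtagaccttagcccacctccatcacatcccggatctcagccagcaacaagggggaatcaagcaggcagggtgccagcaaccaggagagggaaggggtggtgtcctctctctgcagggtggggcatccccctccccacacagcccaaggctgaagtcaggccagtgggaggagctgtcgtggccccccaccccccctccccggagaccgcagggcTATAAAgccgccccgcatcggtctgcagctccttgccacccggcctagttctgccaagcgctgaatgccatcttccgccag
Phox2a: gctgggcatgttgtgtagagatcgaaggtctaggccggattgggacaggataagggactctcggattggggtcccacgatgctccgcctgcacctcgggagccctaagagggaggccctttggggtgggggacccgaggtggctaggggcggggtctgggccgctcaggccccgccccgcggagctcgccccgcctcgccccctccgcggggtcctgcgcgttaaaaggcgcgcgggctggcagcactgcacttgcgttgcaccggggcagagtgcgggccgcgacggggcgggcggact
Vip: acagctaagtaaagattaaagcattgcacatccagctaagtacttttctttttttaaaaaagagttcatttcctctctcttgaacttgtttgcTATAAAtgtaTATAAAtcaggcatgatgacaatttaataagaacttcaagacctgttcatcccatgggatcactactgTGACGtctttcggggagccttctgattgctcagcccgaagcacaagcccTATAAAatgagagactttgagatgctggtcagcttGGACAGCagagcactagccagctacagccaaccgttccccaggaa
The window of Tubb3 held both parts of RE1, on the reverse strand, at bases 130 to 136 and 262 to 268, so they are not joined into 1 element. The window of Vip held the right part of RE1 at bases 256 to 262 and the core of the cyclic AMP response element. It also held the letters TATAAA at bases 94 to 99, 104 to 109 and 221 to 226. Prph had the letters TATAAA at bases 220 to 225, and no match was found in the window of Phox2a. Over the 29 genes, CAGCACC matched in 4, GGACAGC in 5, TATAAA in 4 and TGACG in 12, and both parts of RE1 were found in Tubb3 and Scg2. Of all 32851 windows, 7.14% held CAGCACC, 6.56% GGACAGC, 13.6% TATAAA, 20.8% TGACG and 0.575% both parts of RE1. The 29 genes have 44 windows, with more than 1 for 8 of them, so these shares, which are per window, cannot be set directly against the gene counts. The matches are descriptions of letters.

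The comparison of genotypes asks whether shelves with the R26Pax3 allele differ in genes of neurons. No member was called: 0 of 33 passed an adjusted p of 0.05 in limma, where 0.0148% of all 27021 probe sets did, and the lowest adjusted p of a member was 0.973. The 33 are those whose mean over the 8 arrays passed a filter on low signals. Their mean was higher in R26Pax3/Pax3 for 31 and lower for 2, against 49% of the 12339 genes tested that were higher. The median log2 difference was 0.46 over the 33 members, with a range from -0.12 to 1.18, and -0.00307 over the genes tested. The median was 0.24 without wild type replicate 11, 0.28 without wild type replicate 2 and 0.22 with 64 in place of 16 added to the signals before log2. These counts are not 33 separate observations, because the members differed together from array to array, as the values below show.

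At an unadjusted p under 0.05 there were 4 members, all higher in R26Pax3/Pax3, beside 5.58% of the genes tested at that threshold in either direction and 2.68% that were higher. They were Gap43, a protein of growing axon tips, Mapt, which encodes the microtubule protein tau, the neurofilament light chain Nefl, and the RNA-binding protein Elavl4. None of them passed after adjustment over all probe sets (limma adjusted p between 0.973 and 1). The number at that threshold was 21 without wild type replicate 6, 14 with the order of deposit as a block, 10 without R26Pax3/Pax3 replicate 7, 2 without R26Pax3/Pax3 replicate 3, and 0 without R26Pax3/Pax3 replicate 4 or without wild type replicate 2 or 11. The groups overlapped in all 33 members, whereas 1.73% of the genes tested were higher and 1.49% lower without overlap.

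The single arrays show where the groups overlapped. Stmn2, a microtubule regulator of growing neurites, read 395.4, 455.7, 437.5 and 185.5 on R26Pax3/Pax3 replicates 1, 3, 4 and 7. On wild type replicates 2, 6, 8 and 11 it read 60.8, 575.2, 258.5 and 62.4. Wild type thus held both the highest array and the lowest ones, and replicate 6 read 9.22 times the signal of replicate 11. The means were 369 ± 125 and 239 ± 242 (SD, n = 4 each), with a log2 difference of 1.05 (SE 0.559, limma adjusted p = 1).

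Nearly the same order of arrays returned across the members. Wild type replicate 6 was the highest wild type array in 32 of 33 members, against 28% of the genes tested. Replicates 2 and 11 were the lower 2 wild type arrays in 29 members, against 23.7% of the genes tested. Among the R26Pax3/Pax3 arrays, replicate 7 was the lowest in 29 members, against 27.7%. All 3 of these orders held in 26 of 33 members and in 3.44% of the genes tested. Over all 8 arrays, the highest was wild type replicate 6 in 20 members (15.3% of the genes tested) and R26Pax3/Pax3 replicate 3 in 8 (11.9%). R26Pax3/Pax3 replicate 1 was highest in 2 (15.5%), and replicates 4 (9.57%), 7 (9.17%) and wild type replicate 8 (9.9%) in 1 each. The lowest array was wild type replicate 11 in 14 members (14.6%), wild type replicate 2 in 13 (13.3%) and R26Pax3/Pax3 replicate 7 in 4 (13.8%). R26Pax3/Pax3 replicate 1 (9.77%) and wild type replicate 8 (9.3%) were lowest in 1 each.

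The spread within a genotype was wide for these genes. Its median over the members was 0.59 on the log2 scale, as the residual SD of the fit, against 0.17 over the genes tested. Among the 3084 genes tested whose mean level lay between the quartiles of the members it was 0.21. Of the 33 members, 24 had a within-genotype SD above 0.40, the value that 5% of the genes tested exceeded. Relative to the mean of each gene, the median member stood at 0.28, 0.51, 0.44 and -0.21 log2 units on R26Pax3/Pax3 replicates 1, 3, 4 and 7. It stood at -0.75, 0.58, 0.07 and -0.69 on wild type replicates 2, 6, 8 and 11. The wild type arrays therefore spanned a wider range of neuronal signal than the R26Pax3/Pax3 arrays, and these values are descriptions with no test.

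**Figure D1:**
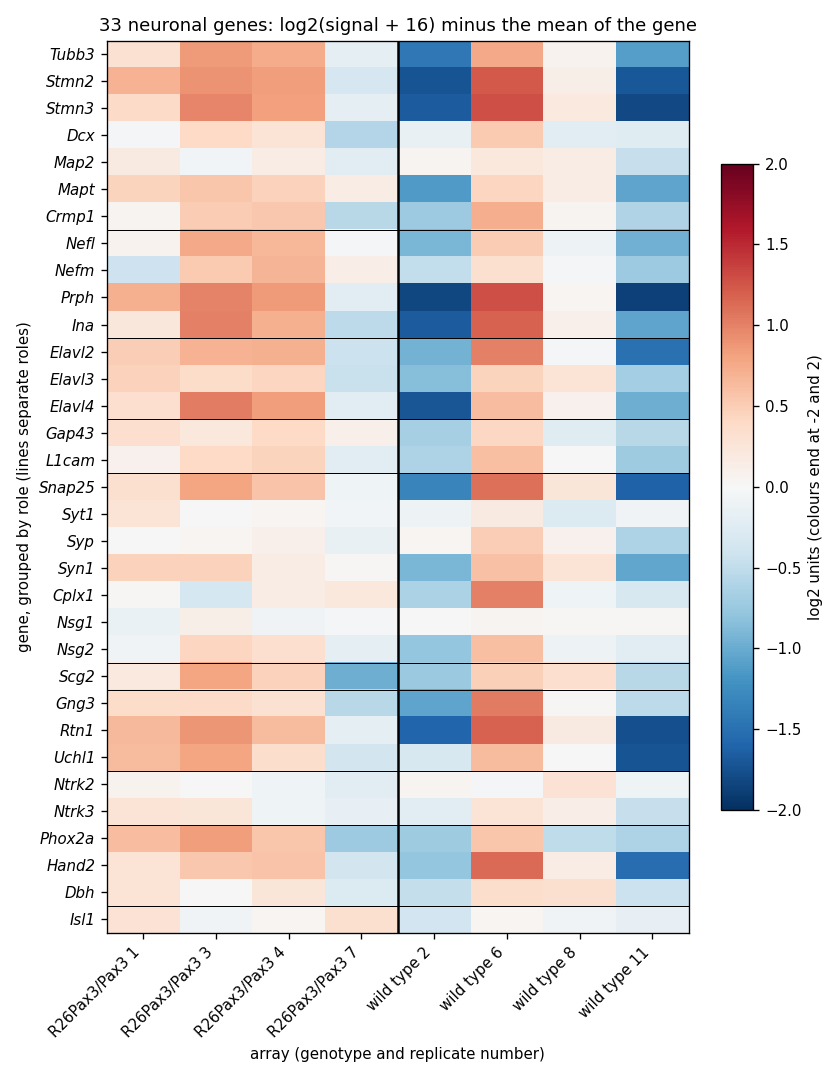
Each row is 1 of the 33 members that passed the filter and each column an array, with colour for log2(signal + 16) minus the mean of the gene. Wild type replicates 2 and 11 are blue and replicate 6 is red in most rows, while Nsg1 and Ntrk2 are near white throughout.

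In bulk tissue, fewer neurons and less RNA per neuron cannot be told apart. As a measure of likeness, each member was correlated with the mean of the other members over the 8 arrays, which share the scaling of MAS5. These correlations are descriptions, and r was above 0.8 for 24 members, between 0.5 and 0.8 for 6 and between 0 and 0.5 for 3. Between pairs of members the median r was 0.79, and 251 of 528 pairs (47.5%) had r above 0.8, against 1.16% of all pairs of genes tested.

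**Figure D2:**
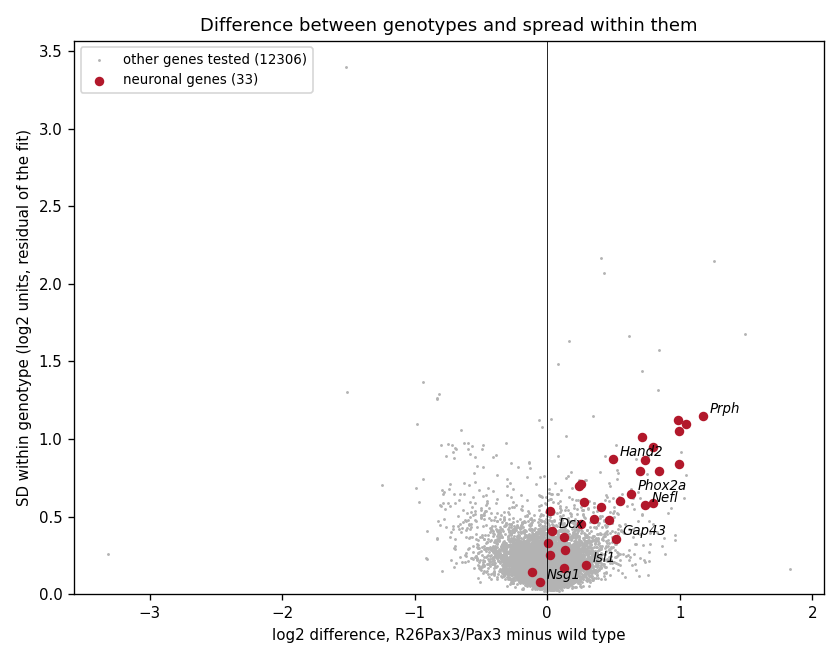
Each point is a gene, with the log2 difference between genotypes on the horizontal axis and the residual SD within genotype, in log2 units, on the vertical axis. The 33 members, in red, reach SDs of about the size of their differences, up to 1.15 for Prph, which has a difference of 1.18.

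The genes of the cytoskeleton comprised close followers and looser ones. Tubb3, the neuronal beta-tubulin, read 93.9, 144.5, 133.6 and 62.4 on R26Pax3/Pax3 replicates 1, 3, 4 and 7 and 17.3, 135.9, 77.8 and 25.6 on wild type replicates 2, 6, 8 and 11. It had a log2 difference of 0.85 (SE 0.414) and r = 0.981 with the other members. Tubb3 was dim on wild type replicates 2 and 11. Stmn3, a relative of Stmn2, had r = 0.993, and Crmp1, a mediator of semaphorin signals, had r = 0.945. Mapt read 51.1 ± 7.72 against 27 ± 22.8 (SD, n = 4 each), with a log2 difference of 0.80 (SE 0.322, limma adjusted p = 0.995). In the same order, Mapt read 53, 58.1, 53.4 and 40.1 in R26Pax3/Pax3 and 7.1, 52.4, 40.2 and 8.3 in wild type. Wild type replicates 2 and 11 were far below the medians, so no fold is given.

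Dcx, a microtubule protein of migrating young neurons, and Map2, a microtubule protein of dendrites, followed less closely. Dcx read 110 ± 35 against 107 ± 34.7, a log2 difference of 0.03 (SE 0.225), and r was 0.718. Wild type replicate 6, at 158.5, lay far above the other wild type arrays, at 86.3 to 92.7. On the R26Pax3/Pax3 arrays Map2 read 189.3, 159.5, 185.6 and 138.8, and on the wild type arrays 173.9, 194.3, 185.2 and 116.8. The groups overlapped widely. Map2 averaged 168 ± 23.7 against 168 ± 34.8, a log2 difference of 0.02 (SE 0.154), with r = 0.643. Their spread within genotype was 0.41 and 0.25 log2 units, below the 1.10 of Stmn2.

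Intermediate filaments of neurons included the most variable member. Prph, which encodes peripherin of peripheral neurons, read 210.3, 258.9, 234.1 and 103.6 on R26Pax3/Pax3 replicates 1, 3, 4 and 7. It read 23.3, 320, 125.4 and 22 on wild type replicates 2, 6, 8 and 11. The 2 lowest values are dim, and the other arrays lie well above the median. The log2 difference of 1.18 was about the size of the within-genotype SD of 1.15 (SE 0.585, limma adjusted p = 1). Nefl read 182.5, 303.2, 282.2 and 169.4 on the R26Pax3/Pax3 arrays and 83.8, 251.9, 158.6 and 80.3 on the wild type arrays, in the order given. Wild type replicates 2 and 11 were again the lowest. Nefl averaged 234 ± 68.2 against 144 ± 80.7 (SD, n = 4 each), a log2 difference of 0.74 (SE 0.301, limma adjusted p = 0.995), and the medium chain Nefm read 127 ± 44.3 against 87.5 ± 33.5. Ina, alpha-internexin, had r = 0.973 and Nefm r = 0.781. The heavy chain Nefh, which appears late in neuron maturation, was dim on all 8 arrays, at 1.1 to 19.9, and did not pass the filter.

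The 3 Elavl genes encode RNA-binding proteins of young neurons. In the same order, Elavl2 read 198.5, 231.2, 235.2 and 97.5 in R26Pax3/Pax3 and 62.9, 290, 132.8 and 38.4 in wild type. On the R26Pax3/Pax3 arrays Elavl3 read 73.2, 67.2, 71.1 and 31.3, and on the wild type arrays 19.9, 72.5, 62.2 and 24.2. Elavl4 read 58.4, 103.3, 89 and 34.2 on the R26Pax3/Pax3 arrays and 2, 73.9, 46.2 and 13.7 on the wild type arrays, in the order given. In all 3, wild type replicates 2 and 11 and R26Pax3/Pax3 replicate 7 were the low arrays. These arrays were dim for Elavl3 and Elavl4, and wild type replicate 11 was dim for Elavl2. The log2 difference of Elavl4 thus depended on the value added before log2, with 1.74 for 1 added and 0.50 for 64 added. Elavl2 averaged 191 ± 64.2 against 131 ± 113, Elavl3 60.7 ± 19.8 against 44.7 ± 26.5 and Elavl4 71.2 ± 31 against 34 ± 32.5 (SD, n = 4 each). Their log2 differences were 0.74 (SE 0.443), 0.40 (SE 0.305) and 0.99 (SE 0.439), and r with the other members was 0.985, 0.950 and 0.945.

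Of the genes of axon growth and adhesion, Gap43 had the lowest unadjusted p of the members (0.0208). It read 488.6, 446.5, 514.5 and 411.6 on R26Pax3/Pax3 replicates 1, 3, 4 and 7 and 236, 520.6, 322.9 and 257.9 on wild type replicates 2, 6, 8 and 11. The groups overlapped through wild type replicate 6 alone, since the other 3 wild type arrays lay below every R26Pax3/Pax3 array. The log2 difference was 0.52 (SE 0.195, limma adjusted p = 0.973). In the same order, L1cam read 124.8, 158.2, 164.8 and 99 in R26Pax3/Pax3 and 70.3, 186.2, 118.1 and 65.4 in wild type. L1cam, an adhesion molecule of axons, averaged 137 ± 30.6 against 110 ± 56.1, with r = 0.988 and a log2 difference of 0.36 (SE 0.261).

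Genes of synapses and vesicles fell into followers and non-followers. Snap25, a fusion protein of synaptic vesicles, read 57.6, 85.7, 71.4 and 39.8 on R26Pax3/Pax3 replicates 1, 3, 4 and 7 and 7.6, 110.2, 54 and 3.3 on wild type replicates 2, 6, 8 and 11. It was dim on R26Pax3/Pax3 replicate 7 and wild type replicates 2 and 11. Snap25 had r = 0.983, and the vesicle protein Syn1, dim on all arrays but wild type replicate 6, had r = 0.944. Nsg2, an endosomal protein of neurons, was above the array median on 3 arrays only and had r = 0.883. On the R26Pax3/Pax3 arrays Cplx1 read 59.6, 41.8, 66.3 and 70.2, and on the wild type arrays 31.6, 133.3, 53.5 and 43.3. Wild type replicate 6 alone stood apart for Cplx1, a regulator of vesicle fusion, and its r was 0.621. Syp, a membrane protein of synaptic vesicles, was dim on all arrays but wild type replicate 6, at 53.2, with r = 0.732.

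Nsg1, an endosomal protein related to Nsg2, and the calcium sensor Syt1 showed the order in part only. Wild type replicate 6 was the highest wild type array for both, but replicate 8 was below replicate 11. For Syt1, R26Pax3/Pax3 replicate 7 was the lowest of its genotype. Nsg1 read 404.1, 486, 425.1 and 441 on the R26Pax3/Pax3 arrays and 449.9, 466.4, 451.9 and 452.7 on the wild type arrays, in the order given. All arrays were close together. Nsg1 averaged 439 ± 34.8 against 455 ± 7.54 (SD, n = 4 each), with an r of 0.030 and a within-genotype SD of 0.08 log2 units, the lowest of the members. Syt1 read 54 ± 7.54 against 48.1 ± 8.42, with r = 0.502.

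In the same order, Scg2 read 47.8, 80.1, 60.2 and 12.2 in R26Pax3/Pax3 and 17, 61.5, 54.3 and 21.8 in wild type. R26Pax3/Pax3 replicate 7 was the lowest of all. Scg2, secretogranin II of secretory granules, averaged 50.1 ± 28.5 against 38.7 ± 22.5 with r = 0.839. On the R26Pax3/Pax3 arrays Chga read 24.8, 14.3, 24.5 and 4.4, and on the wild type arrays 2.9, 20.7, 5 and 11.5. Chga, chromogranin A, was dim on all 8 arrays. Rtn1 read 178.6, 212.5, 174.9 and 92.9 on the R26Pax3/Pax3 arrays and 25.4, 263.7, 123.5 and 20.6 on the wild type arrays, in the order given. Of the other neuronal genes, Rtn1, a reticulon of the endoplasmic reticulum, had r = 0.990 and a log2 difference of 0.99 (SE 0.539). Rtn1 was dim on wild type replicates 2 and 11. In the same order, Uchl1 read 198.7, 222.9, 161.2 and 91.4 in R26Pax3/Pax3 and 94.8, 198.5, 123.9 and 25.7 in wild type. Uchl1, a ubiquitin hydrolase abundant in neurons, averaged 169 ± 57.4 against 111 ± 71.6, with r = 0.865. Gng3, a G protein gamma subunit, read 90.5 ± 28.3 against 84.4 ± 66.1, with r = 0.921. Sncg, a synuclein of peripheral neurons, was dim on all 8 arrays, at 0.6 to 35.3. Chga and Sncg did not pass the filter and were not tested, and none of the other genes here passed the test.

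Phox2a and Hand2, transcription factors of autonomic identity, showed the order of the arrays described above. Phox2a read 62.8, 75.5, 60 and 15.1 on R26Pax3/Pax3 replicates 1, 3, 4 and 7 and 15.6, 59.3, 20.4 and 17.7 on wild type replicates 2, 6, 8 and 11. It was above the array median on 3 R26Pax3/Pax3 arrays and on wild type replicate 6 only, and dim on the other 4. Its log2 difference was 0.64 (SE 0.350, limma adjusted p = 1), with r = 0.848. Hand2 read 55.2, 69.3, 71.5 and 29.5 on the R26Pax3/Pax3 arrays and 18.6, 114, 49.5 and 4.6 on the wild type arrays, in the same order of replicates. It was dim on R26Pax3/Pax3 replicate 7 and wild type replicates 2 and 11. Wild type held both its highest and its lowest array, and r was 0.963, with a log2 difference of 0.50 (SE 0.455). Hand2 is also a gene of facial mesenchyme, so it marks autonomic neurons less strictly than Phox2a.

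The enzymes of catecholamine synthesis among the members, Dbh and Th, were dim. Dbh, dopamine beta-hydroxylase, read 34.9, 26.3, 33.4 and 18.6 on R26Pax3/Pax3 replicates 1, 3, 4 and 7. It read 14.1, 37.3, 36.3 and 15 on wild type replicates 2, 6, 8 and 11. All 8 values lay below the array medians, though their order resembled that of the other members (r = 0.876). Th, tyrosine hydroxylase, was dim on all arrays too, at 5.8 to 25.3, and its lowest array was wild type replicate 6, where most members were highest.

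The 3 sensory identity genes differed from each other: Pou4f1 was dim, Ntrk2 did not show the order of the arrays, and Ntrk3 did. Pou4f1, a homeodomain factor of sensory neurons, read 17, 5.5, 15.1 and 13.5 on R26Pax3/Pax3 replicates 1, 3, 4 and 7 and 19.2, 9.9, 13.6 and 11.8 on wild type replicates 2, 6, 8 and 11. All 8 values were dim, and its second probe set was lower still. Ntrk2, the receptor of brain-derived neurotrophic factor, read 299.4, 288.2, 267.6 and 242.9 on the R26Pax3/Pax3 arrays and 296.9, 281.9, 351.8 and 267.3 on the wild type arrays. It was well above the medians everywhere, with r = 0.115 and a log2 difference of -0.12 (SE 0.106). Ntrk3, the receptor of neurotrophin-3, read 198.8, 194.8, 151.5 and 142.3 on the R26Pax3/Pax3 arrays and 137.3, 198.9, 178.8 and 113.7 on the wild type arrays. Wild type replicate 6 was its highest wild type array, replicates 2 and 11 were the lower 2, and R26Pax3/Pax3 replicate 7 was the lowest of its genotype. Its r was 0.852, beside 0.848 for Phox2a, with a log2 difference of 0.13 (SE 0.167). Both receptors are also made by cells other than neurons in embryonic tissues.

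Isl1, a homeodomain factor shared by sensory and sympathetic neurons and also active in oral epithelium, read 139.4, 104.9, 114.3 and 142.6 on R26Pax3/Pax3 replicates 1, 3, 4 and 7. It read 80.8, 114.2, 105.1 and 97.4 on wild type replicates 2, 6, 8 and 11. R26Pax3/Pax3 replicate 7, the lowest of its genotype in most members, was the highest array here. The log2 difference was 0.29 (SE 0.134, limma adjusted p = 1), r was 0.478, and its second probe set had a log2 difference of -0.04.

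**Figure D3:**
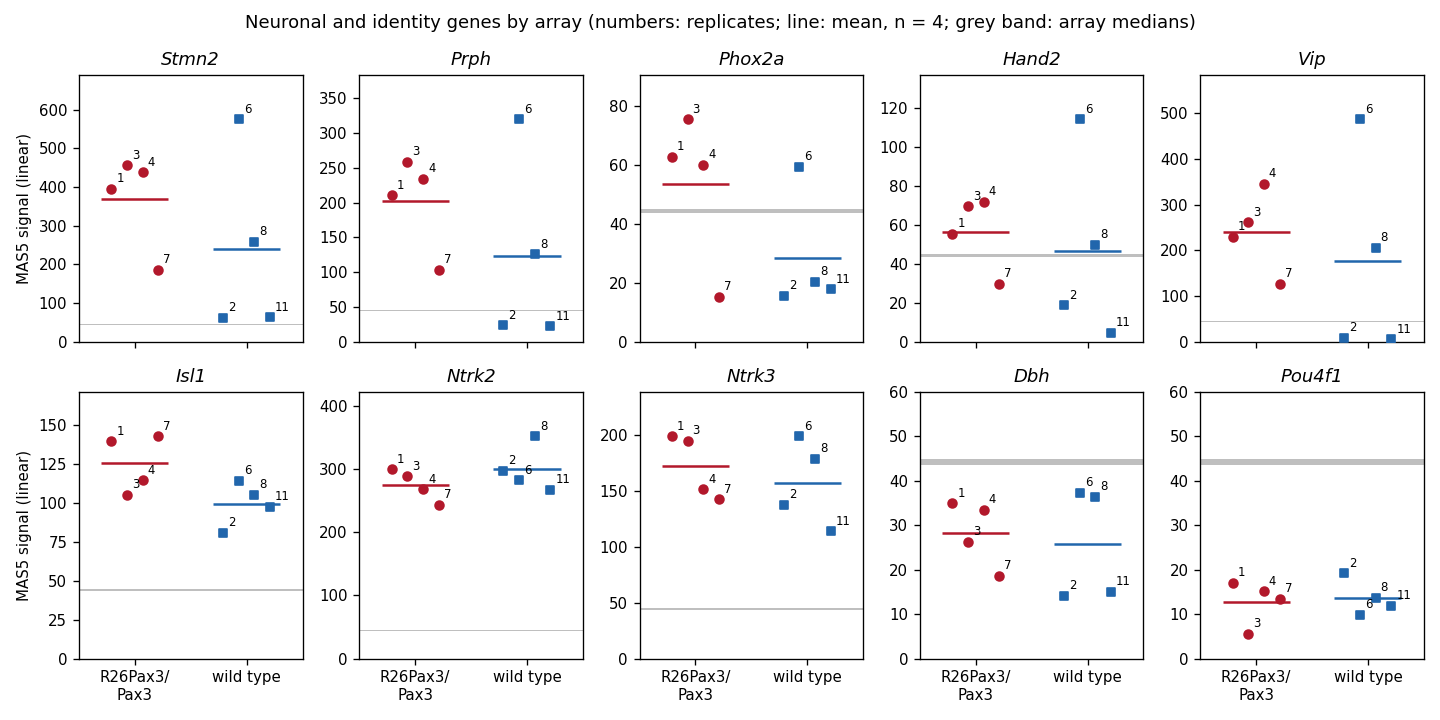
MAS5 signals on a linear axis for 10 genes, with 1 point per array, its replicate number, the mean of 4 arrays as a line and the range of the array medians as a grey band. Stmn2, Prph, Hand2 and Vip are highest on wild type replicate 6 and lowest on replicates 2 and 11, Isl1 and Ntrk2 are not, and all points of Dbh and Pou4f1 lie below the band.

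Further genes of both identities were taken from lists chosen with earlier results of these data known. Of 16 further autonomic genes, 14 had a probe set and 9 passed the filter, 7 higher and 2 lower, with a median log2 difference of 0.16 and 0 called. Vip had the widest range: 230, 261.2, 346.1 and 127 on R26Pax3/Pax3 replicates 1, 3, 4 and 7 and 7.8, 487.1, 206 and 5.1 on wild type replicates 2, 6, 8 and 11. It was thus dim on wild type replicates 2 and 11 and above the medians on the other 6 arrays, in both genotypes (log2 difference 1.49, SE 0.849, limma adjusted p = 1). Ret, a receptor of the GDNF family in autonomic and enteric neurons, had the lowest unadjusted p of that list (0.0159, limma adjusted p = 0.968), at 43 ± 17.2 against 19.3 ± 12.9. Ret was above the array median on R26Pax3/Pax3 replicate 3 only, at 67.2, and dim on the other 7 arrays of both genotypes. Chrna3 and Chrnb4, subunits of the nicotinic receptor of autonomic ganglia, also followed the members, Chrna3 with r = 0.97, as for Vip, and Chrnb4, which was dim on all arrays and was picked after its values were seen, with r = 0.91. The r of Ret was 0.90.

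Of the 9 genes of that list that passed the filter, 4 had r above 0.8 with the members, and the others followed less. Ddc, an enzyme of catecholamine and serotonin synthesis, was above the array median on 7 arrays. Ddc had r = 0.49 and a log2 difference of 0.08. Gata2, a transcription factor that is also active in vessels, had r = -0.17 and 0.13. Slc18a2, the monoamine transporter of vesicles, had r = -0.16 and -0.07 and was above the array median on 5 arrays only. Slc6a2 and Npy, which were dim on all arrays and were picked after their values were seen, had r = 0.44 and 0.27. None of them passed the test.

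Of 20 further sensory genes, 15 had a probe set and 6 passed the filter, 5 higher and 1 lower, with a median log2 difference of 0.12 and 0 called. None of the 6 had r above 0.8 with the members. The peptide gene Tac1 read 78.6, 134.2, 174.2 and 109.8 on R26Pax3/Pax3 replicates 1, 3, 4 and 7 and 134.2, 111.2, 233.7 and 48.5 on wild type replicates 2, 6, 8 and 11, with r = 0.39. Runx1, a factor of sensory neurons and of blood cells, had r = 0.41, Piezo2, a channel of touch neurons, r = 0.14, and Runx3, a factor of proprioceptive neurons, r = 0.37. The channels P2rx3 and Scn9a, which were dim on all arrays and were picked after their values were seen, had r = 0.97 and 0.91. All other genes of the list that were dim on all arrays had r between -0.75 (Scn10a) and 0.31 (Pou4f3). P2rx3, an ATP-gated channel, read 34.5 on wild type replicate 6 and 1.3 on replicate 11.

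Other genes shared by all neurons repeated the pattern in part. Of 36 further genes, 33 had a probe set and 29 passed, 24 higher and 5 lower, with a median log2 difference of 0.13 and 0 called. Of those 29, 14 had r above 0.8 with the members. Stmn4, a further stathmin, read 59.2 ± 16.4 against 28.3 ± 37.5 with the lowest unadjusted p of the list (0.0247, limma adjusted p = 0.992). Thy1, a surface protein of neurons and other cells, had an unadjusted p of 0.049. The 4 brightest genes of the list are also made outside neurons. The growth cone protein Basp1 had r = -0.20, the adhesion molecule Ncam1 r = 0.46, Dpysl3, a relative of Crmp1, r = 0.65, and the tubulin Tubb2b r = 0.80.

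The genes outside the list that most resembled the members were found without regard to function, by the correlation of deviations from the genotype mean over the 8 arrays. The 15 closest were Rab6b, Tagln3, Syt17, Scg3, Reep1, Ppp2r1a, Neo1, Parg, Syn3, Chrna3, Vip, Eml5, Mllt11, Olfm1 and Gpr137b, with r from 0.966 to 0.987. Tagln3, Scg3, Chrna3, Vip and Mllt11 were also on the lists above. Rab6b, a small GTPase, read 108.4, 120.1, 122.7 and 84.2 on R26Pax3/Pax3 replicates 1, 3, 4 and 7 and 40.2, 144.9, 92.1 and 43.9 on wild type replicates 2, 6, 8 and 11. Some of the 15 varied by little, such as the phosphatase subunit Ppp2r1a, at 3488 to 4369. They are the extreme of many correlations, each over 8 arrays.

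A further probe set that passed the filter gave a reading with other probes for 15 members. Its r with the first was above 0.8 in 8 of them, namely Stmn2 (0.97), Stmn3 (0.99), Dcx (0.87), Mapt (0.88), Nefl (0.93), Ina (0.94), Elavl2 (0.96) and Elavl4 (0.96). For 7 it was lower: Map2 (0.18), Syt1 (0.35), Cplx1 (0.12), Nsg1 (-0.46), Ntrk2 (0.67), Ntrk3 (0.12) and Isl1 (0.45). The r of 0.852 of Ntrk3 with the other members thus holds for 1 probe set, and the high reading of Cplx1 on wild type replicate 6 was not seen on its second one, at 25.8.

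The arrays were also compared by their order of deposit, since the first and last 4 arrays deposited held 2 of each genotype. Among the first 4, which are R26Pax3/Pax3 replicates 1 and 3 and wild type replicates 6 and 8, the median log2 difference over the members was 0.03 and 18 of 33 were higher. Among the last 4, which are R26Pax3/Pax3 replicates 4 and 7 and wild type replicates 2 and 11, it was 0.78 and 31 were higher. Of the genes tested, 51.4% and 47.2% were higher in the 2 sets, so the members departed from the rest in the last 4 arrays. Stmn2 had differences of 0.13 and 1.96, Prph 0.19 and 2.16, and Hand2 -0.24 and 1.24. Phox2a, with 0.70 and 0.58, and Syt1, with 0.19 and 0.08, had smaller differences in the last 4 arrays, and Dcx, Nsg1 and Ntrk2 had nearly equal ones in both sets. The labels give no batch, so order of deposit and the content of single samples cannot be told apart, and the difference between the sets was not tested.

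**Figure D4:**
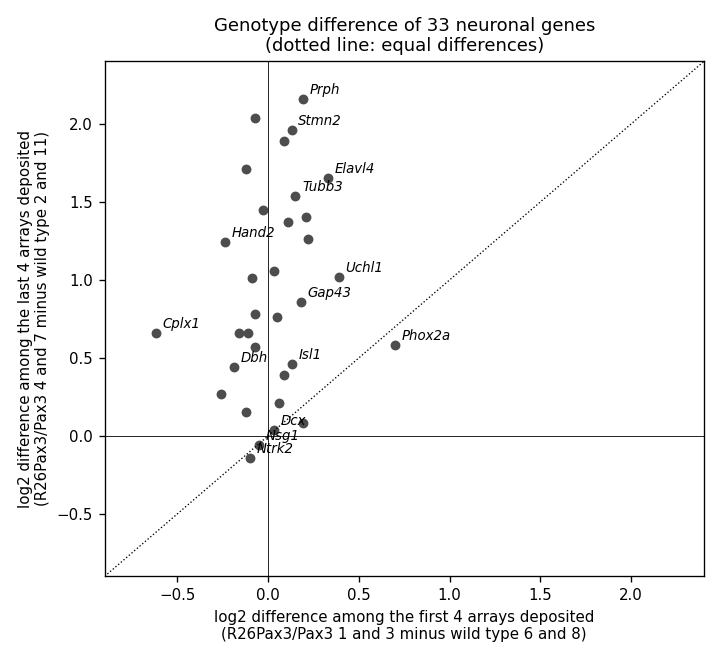
Each point is 1 of 33 members, with its log2 difference between genotypes among the first 4 arrays deposited on the horizontal axis and among the last 4 on the vertical axis. Most points lie above the dotted line of equal differences, Prph to 2.16, whereas Phox2a, Dcx, Nsg1 and Ntrk2 lie near it.

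Markers of other tissues were read on the same arrays. All 15 measured genes of the central nervous system list, the brightest of which were Emx2, Neurod2, Gfap and Pax6, were dim on all 8 arrays, and their summed signal was 153 to 211 in R26Pax3/Pax3 and 127 to 161 in wild type. Of 6 measured pituitary genes 5 were dim on all arrays, with sums of 87.1 to 114 and 98.6 to 112. Of 8 olfactory genes 4 were dim on all arrays, and the sums were 410 to 526 and 411 to 552. On wild type replicate 6, the highest in neuronal signal, the 3 sums were 128, 112 and 468. None was the highest of the 8 arrays, but the pituitary sum was the highest of the wild type arrays. The first sum held dim signals only, and Adcy3, at 205.3 to 255.6, gave the most to the olfactory sum. Whether such tissue was present was not tested.

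Genes of Schwann cells, the glia of nerves, varied to different degrees. Of 14, 12 had a probe set, and their summed signal, to which Pmp22 gave the most, at 790.9 to 991.1, was 1766 to 1965 in R26Pax3/Pax3 and 1833 to 1990 in wild type. Of the 8 that passed, 5 were higher and 3 lower (median log2 difference 0.05, 0 called), and only Fabp7, a fatty acid binding protein of early glia, had r above 0.8 with the members. Fabp7 read 190.6, 166.5, 228.8 and 190.7 on R26Pax3/Pax3 replicates 1, 3, 4 and 7 and 108.2, 251.5, 133.1 and 109.5 on wild type replicates 2, 6, 8 and 11. Its highest array was wild type replicate 6, as for most neuronal members. Among the R26Pax3/Pax3 arrays it was lowest on replicate 3, where the median neuronal member was highest. Among the brightest of the list, Pmp22 had r = -0.39, Erbb3 r = 0.09 and Ngfr r = 0.05. Sox10, S100b and Gfra3 also passed the filter and were picked after their values were seen. Sox10, the defining factor of these glia, had r = -0.31, the calcium-binding protein S100b r = 0.60 and the receptor Gfra3 r = 0.49. Within genotype the SD was 0.44 log2 units for S100b, at 23.6 to 73.1, and 0.39 for Fabp7, but 0.10 for Pmp22. Myelin protein gene Mbp had the lowest unadjusted p of the list (0.0278, limma adjusted p = 0.995) and r = 0.67.

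Skeletal muscle varied between arrays as well, in another order. The summed signal of 16 muscle genes was 4374, 7513, 9258 and 1205 on R26Pax3/Pax3 replicates 1, 3, 4 and 7 and 8701, 3922, 7381 and 10538 on wild type replicates 2, 6, 8 and 11. Wild type replicate 6, with high neuronal signal, was the lowest wild type array for muscle, and replicates 2 and 11, with low neuronal signal, were the highest. R26Pax3/Pax3 replicate 7 was low in both, and replicates 3 and 4 were high in both. Sums over 8 epithelial genes were 4806 to 6767 in R26Pax3/Pax3 and 4188 to 5730 in wild type, over 12 genes of palatal mesenchyme 26522 to 31628 and 29324 to 36079, and over 7 endothelial genes 1186 to 1367 and 1219 to 1304. Of the muscle genes 15 passed the filter and 15 had a lower mean in R26Pax3/Pax3, with 0 called and 0 at an unadjusted p under 0.05 (median log2 difference -0.65). All 8 epithelial genes had a higher mean in R26Pax3/Pax3, the direction of most neuronal members, with a median log2 difference of 0.21 and 0 called. Of these, Krt14, with 0.62 (SE 0.157, limma adjusted p = 0.602), and Sfn, with 0.56 (SE 0.115, limma adjusted p = 0.368), had an unadjusted p under 0.05, and the groups of Sfn did not overlap. Their r with the neuronal members was -0.05 and 0.29. Of the mesenchymal genes 5 were higher and 7 lower with 0 called, and 4 had an unadjusted p under 0.05. Osr2 was higher and Col1a1, Lum and Dcn were lower, and the groups of Lum did not overlap either. Of the genes tested, 5.58% had an unadjusted p under 0.05, and 1.73% were higher and 1.49% lower without overlap. The part of differing tissue content in the neuronal values was not tested.

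**Figure D5:**
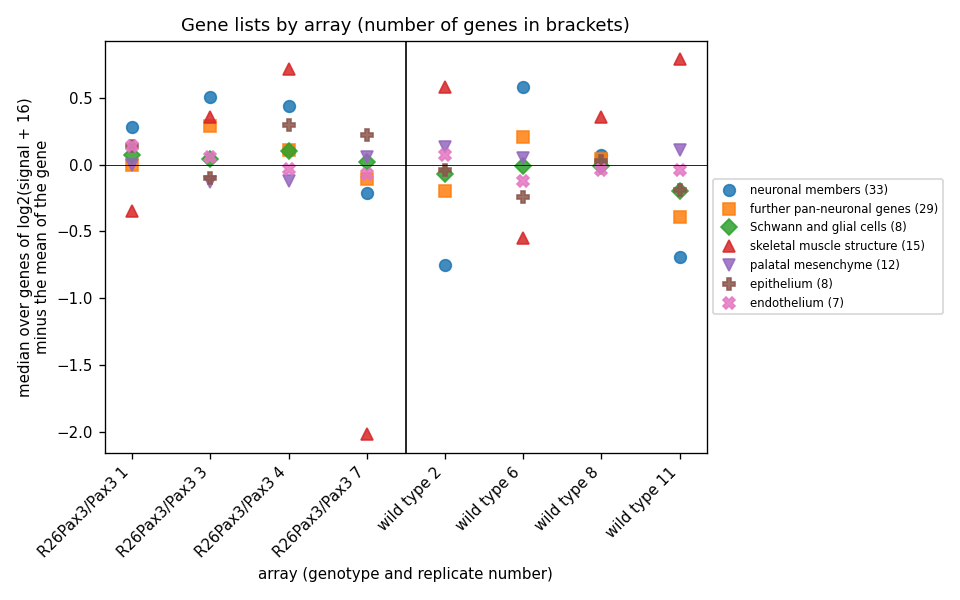
Each symbol is the median over the genes of a list of log2(signal + 16) minus the mean of the gene, for each of the 8 arrays. The neuronal members run from -0.75 to 0.58 and muscle from -2.02 to 0.79, whereas the Schwann, mesenchyme, epithelium and endothelium lists stay between -0.24 and 0.30.

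Signals that nerves respond to were measured from the same list approach. Of 16 neurotrophic and guidance ligands, 14 had a probe set and 10 passed, 5 higher and 5 lower, with a median log2 difference of 0.02 and 0 called. Sema3e, a secreted semaphorin, had the lowest unadjusted p (0.00924, limma adjusted p = 0.907). It read 126.1, 138.5, 80 and 159 on R26Pax3/Pax3 replicates 1, 3, 4 and 7 and 147, 200.4, 190.8 and 220.8 on wild type replicates 2, 6, 8 and 11. The groups overlapped through wild type replicate 2 and R26Pax3/Pax3 replicate 7. The log2 difference was -0.56 (SE 0.179), with -0.51 and -0.60 among the first and last 4 arrays, and r with the members was -0.37. The bright guidance genes Slit2, Sema3a, Sema3c and Sema3f had log2 differences of 0.07, 0.09, -0.20 and 0.20, none of which passed. None of the 10 ligands had r above 0.8 with the members.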

How the data were processed

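Total RNA was taken with Trizol and labelled as biotinylated cRNA from 6 µg for Affymetrix arrays, per the labels' protocols. The deposited intensities are linear signals per probe set that the authors computed, using MAS5 of an unstated version per the submitters' processing notes. Without the lowest and highest 2%, their mean was 150 on each array. No 2 arrays held identical values, and array pairs correlated at 0.974 to 0.982. The 64 control probe sets were left out, which kept 45037, and names came from the array annotation.

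Signals were analysed as log2(signal + 16), which understates differences of dim genes. Probe sets with a mean above the 40th percentile (27021) were fitted together with limma 3.58.1 in R 4.3.3 (lmFit, eBayes with an intensity trend), adjusted by Benjamini-Hochberg and called under 0.05. Differences are R26Pax3/Pax3 minus wild type, and 4 arrays per group limit the precision. The fit was tested on simulated data. The members and lists were chosen with earlier results of these data known. Every member is named. From the other lists, the 4 with the highest mean or an unadjusted p under 0.05 could be named, and the 15 genes most alike. Other genes are marked as picked after their values were seen. Alternatives are given in the closing section.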

Additional observations from a re-analysis of the deposited data

Results flagged for a closer look

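Within each genotype, every member that passed the filter was examined for 1 array far from the other 3, on the log2 scale. Of 66 groups examined, 5 were flagged, and chance flags about 1 in 20. R26Pax3/Pax3 replicate 7 was low for Stmn2 (185.5, where the next array read 395.4), Elavl3 (31.3, next 67.2) and Gng3 (48.3, next 101). Wild type replicate 6 was high for Dcx (158.5, next 92.7) and Phox2a (59.3, next 20.4). These arrays are also the ones that stood lowest and highest of their genotype in most other members, so the 5 are not independent.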

How the results depend on the processing

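No member was called under any of the 16 alternatives, and the lowest adjusted p of a member under any of them was 0.157. The median log2 difference over the members was 0.46, and leaving out each replicate in turn gave 0.24 to 0.65, lowest without wild type replicate 11 and highest without wild type replicate 6, with 27 to 31 of 33 members higher. It fell to 0.28 without wild type replicate 2. With 64 added before log2 it was 0.22, with 1 added 0.54, without the filter 0.38 over all 38 genes, with quantile normalization 0.47 and on the second brightest probe set 0.40. A filter at the 60th percentile left 20 members, of which 18 were higher. The number of members at an unadjusted p under 0.05 was 4, and it was 21 without wild type replicate 6, 14 with the order of deposit as a block, 10 without R26Pax3/Pax3 replicate 7, 2 without R26Pax3/Pax3 replicate 3 or with the filter at the 60th percentile, and 0 without R26Pax3/Pax3 replicate 4 or wild type replicate 2 or 11. Of 515 recomputed differences of single genes, 23 changed sign, in 8 genes. Syp had -0.01 with 64 added, -0.00 with quantile normalization and between -0.20 and 0.17 when replicates were left out. Cplx1 had -0.01 with 64 added. On the second probe set Ntrk2 had 0.06 and Isl1 -0.04. Leaving out replicates gave -0.10 to 0.24 for Dcx, -0.13 to 0.10 for Map2, -0.19 to 0.36 for Cplx1, -0.05 to 0.64 for Gng3 and -0.01 to 0.26 for Dbh. The cause of these changes was not tested. No paired analysis was possible because the genotypes share no replicate numbers. Signals below the array medians have no known size here, which among the members that passed limits Dbh, Syn1, Syp and Nsg2 most, dim on 5 or more of 8 arrays. Of all 38 members, 12 were above the medians on all 8 arrays, so the limit also touches many of the others.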
